A study of Mus musculus with 6 samples.

Results

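Sp1, Sp2, Sp3 and Sp4 encode the broadly expressed members of the specificity protein family of transcription factors, and all 4 are in the deposited table of 12968 genes. They were taken by gene symbol, by a rule that holds no measured value but was set with earlier results of these data known. All 4 passed the filter on low values that left 12549 genes for testing. The samples were ribosome-bound RNA of the middle section of the left brain hemisphere from 6 mice, 1 library per animal. In 3 mice the middle cerebral artery had been occluded for 1 h (MCAO, a model of stroke), and 3 control mice had no occlusion; animals of the series were killed after 3 days. Both groups went through the RiboTag immunoprecipitation, in which an epitope-tagged ribosomal protein, made in cells with Cre recombinase, lets their ribosomes and the attached mRNA be isolated. Astrocytes are the cells named in the title of the series, and the labels give no Cre driver, strain, sex, age or sham operation.

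Sp proteins bind GC-rich promoter elements called GC boxes through C2H2 zinc fingers close to the C-terminus, and many housekeeping and growth-related promoters carry such boxes. Sp1 is an activator of wide range, and Sp3 binds the same boxes and can activate or repress. Sp4 is closely related to both and is best known from neurons, while Sp2 is the most divergent of the 4 and is described at promoters with CCAAT boxes, the element bound by the trimeric factor NF-Y. The Krüppel-like factors (KLF) share the zinc finger domain and bind related sequences.

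The start regions of the genes are shown because they carry the element that the encoded proteins bind. Each is the RefSeq sequence (GRCm38.p6) of the 250 bases before a transcription start, 5′ to 3′ on the strand of the gene, and capitals mark GGGCGG or its reverse complement CCGCCC. Where RefSeq gives several starts (3 windows for Sp2, 2 for Sp3), the one with the most boxes is shown, and for these genes it lies within the annotated gene. The regions are chr15:102406066-102406315 (plus strand) for Sp1, chr11:96977689-96977938 (minus) for Sp2, chr2:72979282-72979531 (minus) for Sp3 and chr12:118301441-118301690 (minus) for Sp4.
Sp1: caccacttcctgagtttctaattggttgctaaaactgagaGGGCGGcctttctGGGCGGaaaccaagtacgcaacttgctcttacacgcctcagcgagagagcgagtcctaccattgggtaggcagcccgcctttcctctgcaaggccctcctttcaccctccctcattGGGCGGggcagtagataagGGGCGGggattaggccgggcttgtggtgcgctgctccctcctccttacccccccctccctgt
Sp2: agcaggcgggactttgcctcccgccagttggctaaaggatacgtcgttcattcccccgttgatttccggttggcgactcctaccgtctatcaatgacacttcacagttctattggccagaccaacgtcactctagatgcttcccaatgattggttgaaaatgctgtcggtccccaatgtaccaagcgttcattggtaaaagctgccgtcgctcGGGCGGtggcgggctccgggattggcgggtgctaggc
Sp3: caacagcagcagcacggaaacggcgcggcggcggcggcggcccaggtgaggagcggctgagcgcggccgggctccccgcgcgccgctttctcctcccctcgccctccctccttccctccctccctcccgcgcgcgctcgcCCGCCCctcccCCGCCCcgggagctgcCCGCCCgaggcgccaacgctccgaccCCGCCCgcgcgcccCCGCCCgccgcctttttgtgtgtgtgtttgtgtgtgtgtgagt
Sp4: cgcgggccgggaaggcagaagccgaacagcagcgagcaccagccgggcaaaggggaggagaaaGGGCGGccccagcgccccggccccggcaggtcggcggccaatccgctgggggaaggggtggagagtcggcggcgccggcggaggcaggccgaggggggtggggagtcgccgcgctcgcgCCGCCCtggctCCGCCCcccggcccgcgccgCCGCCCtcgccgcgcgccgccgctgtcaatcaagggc
In the full windows of 300 bases, which run 50 bases past the start, Sp1 had 4 GC boxes, all on the gene's own strand. Sp2 had 2, Sp3 had 5 and Sp4 had 5. Of all 32851 RefSeq windows of that length, 35.7% held a GC box on either strand and 5.49% held 4 or more. The sequence CCAAT, on either strand and allowed to overlap a GC box, occurred 6 times in the window of Sp2, a number reached by 0.0791% of windows. It occurred 3 times in that of Sp1, 1 time in that of Sp4 and 0 times in that of Sp3, against 37.4% of windows with at least 1 such match. These counts hold for the windows shown: the other Sp2 windows had 0 GC boxes and 0 CCAAT matches, and the other Sp3 window had 2 and 1. Because the windows of Sp2 and Sp3 were picked for their boxes, the shares over all windows are not a like measure for them. A match is a run of letters and does not show that a protein binds there.

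Values are scaled read counts, that is reads per gene divided by 1 factor per library, and they depend on transcript length, so their size does not rank genes by level. Libraries held between 882263 reads (MCAO 2) and 9519548 reads (control 1) in the deposited genes. Controls and MCAO animals parted in microglia markers, 13 of 13 measured, whose summed level ranged from 669.7 to 929.5 in controls and from 2420 to 3290 after MCAO. These sums include 3 markers, Aif1, Tyrobp and Cd68, that reached the filter's mean of 10 only through their MCAO values. Of the 10 whose control mean reached the filter, 7 were higher by the test, against 2.30% of all genes tested. Oligodendrocyte markers had sums of 8592 to 9734 and 12680 to 16139, with 4 of 10 higher, against the same 2.30%. Astrocyte markers summed to 25259 to 40324 in controls and 29207 to 38890 after MCAO, with Gfap the 1 of 11 called. Gfap rose from a mean of 576 to 6372 scaled reads and is part of these sums. Of the 11 log2 changes 7 were negative and 4 positive, where 51.3% of all genes tested were negative. Their median was -0.23, against -0.01 over all genes tested. Neuron markers summed to 16141 to 19214 and 15488 to 18001, with 0 of 11 called (0 at an unadjusted p under 0.05). Neuron markers were thus present in precipitates that the title assigns to astrocytes. Of 9 endothelial markers 4 were measured and 0 called, also 0 at an unadjusted p under 0.05 by limma. Over all genes tested limma called 3.08%, and 19.3% were at an unadjusted p under 0.05, so most genes were not called either. Of 8 blood myeloid markers Lyz2 and Csf3r were measured, the latter only through its MCAO values. Lyz2 had means of 17.1 and 94.1 scaled reads and was higher by the test, and Csf3r had means of 2.86 and 21.0. The part of these shifts in the results for the Sp genes was not tested. In ribosome-bound RNA precipitated from a tissue section, fewer cells of a type and less such RNA per cell cannot be told apart.

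Sp1 mRNA on ribosomes was lower in every MCAO animal than in every control. Sp1 (Entrez Gene 20683, chromosome 15, 102406316 to 102436404) stood at 106, 97.6 and 101 scaled reads in controls 1, 2 and 3. After MCAO it stood at 57.1, 49.8 and 52.0 in animals 1, 2 and 3. The groups did not overlap, with MCAO lower, as in 12.5% of genes tested. The animals within each group lay close together although their depth differed several-fold. The mean fell by 47.9%, from 101.6 ± 4.34 to 52.9 ± 3.75 scaled reads (SD, n = 3 each). The log2 change was -0.93 (SE 0.20, 95% interval -1.36 to -0.50), with a limma adjusted p of 0.0237. Sp1 was thus called lower, as were 0.789% of the genes tested, and it was 1 of 99 such genes, of which 39 had a larger fall. Counting error alone was small in the deep libraries, with 369 reads of Sp1 in control 1 and 97 in MCAO 1. It was wide in MCAO 2, where 16 reads give an exact Poisson interval of 28.4 to 80.8 scaled reads. It was also wide in control 2 (55 reads, 73.5 to 127) and control 3 (67 reads, 78.4 to 128). Values within each group lay closer together than these intervals, so the SDs may understate the variation between animals. The call was lost when control 1 (adjusted p = 0.106), control 3 (0.0705), MCAO 2 (0.0520) or MCAO 3 (0.0898) was left out, while the log2 change stayed between -0.98 and -0.89 over all 6 such fits. It was kept without control 2 (0.0420) and without MCAO 1 (0.0448).

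**Figure D1:**
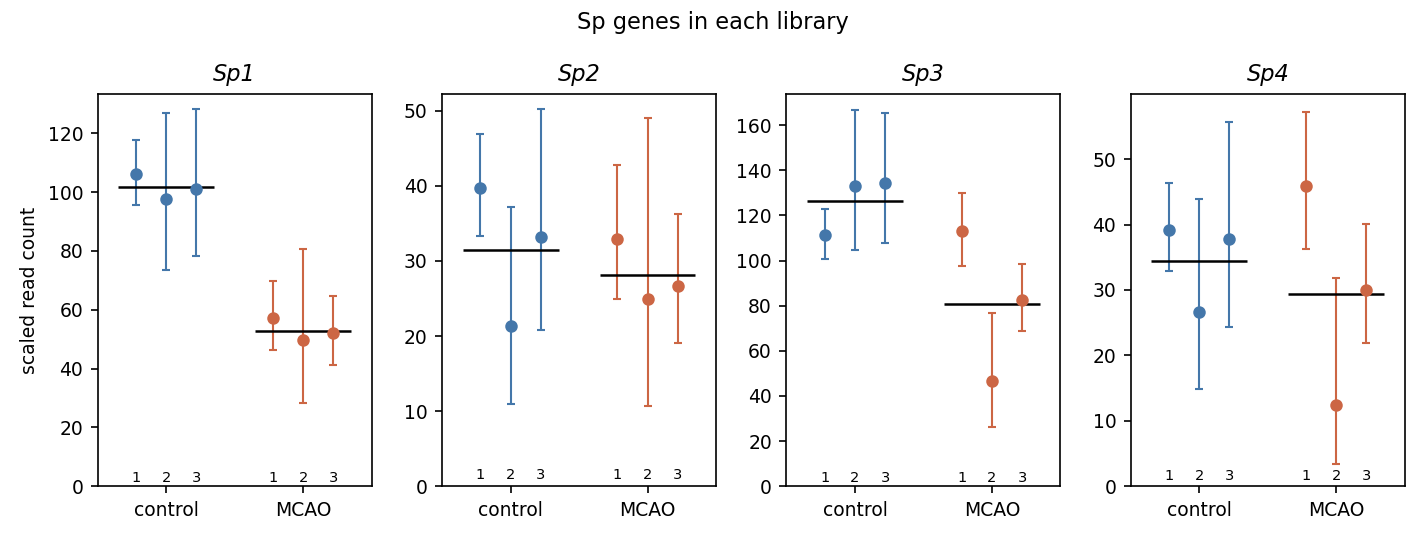
Scaled read counts (y axis, from 0) of the 4 Sp genes in each control and MCAO library; numbers above the x axis name the replicate, points are libraries, bars are 95% exact Poisson intervals of the reads and horizontal lines are group means (n = 3 each). The Sp1 points after MCAO, at 49.8 to 57.1, lie below all control points, at 97.6 to 106, as in 12.5% of genes tested. The groups overlap for Sp2, Sp3 and Sp4.

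Sp3, the family member that competes with Sp1 for the same boxes, was lower on average after MCAO, and the difference did not pass the test. Sp3 (Entrez Gene 20687, chromosome 2, 72936430 to 72980446) was at 111, 133 and 134 scaled reads in controls 1, 2 and 3. In MCAO 1, 2 and 3 it was at 113, 46.7 and 82.6. MCAO 1 lay just above the lowest control, and MCAO 2 was far below the other MCAO animals, with 15 reads behind its value. Group means were 126 ± 12.9 and 80.7 ± 33.2 (SD, n = 3 each), with a difference of -0.72 in log2 (SE 0.27, 95% interval -1.30 to -0.15, adjusted p = 0.165). Without MCAO 2 the log2 change was -0.38 (adjusted p = 0.415). A noncoding gene, Sp3os, overlaps the 5′ end of Sp3 by 1015 bases, and without strand information reads of the shared stretch cannot be told apart. Sp3os was at 8.06, 3.55 and 7.55 scaled reads in controls 1, 2 and 3 and at 21.8, 9.33 and 20.0 in MCAO 1, 2 and 3. All MCAO values of Sp3os thus lay above all controls, which was so for 12.4% of genes tested. The nearest values of the groups were 9.33 in MCAO 2, which is 3 reads, and 8.06 in control 1. Sp3os reached the filter's mean of 10 only through its MCAO values. Its log2 change, 1.27, fell short of a call (adjusted p = 0.237 by limma).

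Sp4, the member best known from neurons, spread widely among the MCAO animals. Sp4 (Entrez Gene 20688, chromosome 12, 118231686 to 118301440) was at 39.1, 26.6 and 37.7 scaled reads in controls 1, 2 and 3 and at 45.9, 12.4 and 29.97 in MCAO 1, 2 and 3. MCAO 1 was the highest of all 6 libraries and MCAO 2 the lowest, the latter from 4 reads, with an exact Poisson interval of 3.39 to 31.9. Means were 34.5 ± 6.86 and 29.4 ± 16.7 (SD, n = 3 each), and the log2 change of -0.38 (SE 0.42, adjusted p = 0.657) turned to 0.12 (adjusted p = 0.898) without MCAO 2. No change of Sp4 was detected, and the 95% interval, from -1.27 to 0.52, includes a fall as large as that of Sp1.

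Sp2, the divergent member, had overlapping values in both groups. Sp2 (Entrez Gene 78912, chromosome 11, 96953332 to 96982959) was at 39.7, 21.3 and 33.2 scaled reads in controls 1, 2 and 3 and at 32.9, 24.9 and 26.6 in MCAO 1, 2 and 3. Every MCAO value lay within the range of the controls. Means were 31.4 ± 9.34 and 28.2 ± 4.24 (SD, n = 3 each), with a log2 change of -0.12 (SE 0.33, 95% interval -0.83 to 0.59, adjusted p = 0.884), which was 0.069 without control 1. An annotated noncoding gene, D030028A08Rik, shares 11729 bases with Sp2 and was at 6.22 to 12.4 scaled reads over the 6 libraries. As for Sp3, reads of the shared stretch cannot be told apart without strand information.

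Of the 4 members 1 was called, against 3.08% of all genes tested, and all 4 log2 changes were negative, as were 51.3% of those of all tested genes. Whether the members differed from each other in their change was tested on the ratio of their scaled reads within each library. Sp1 over Sp2 was 2.67, 4.58 and 3.04 in controls 1, 2 and 3 and 1.73, 2.00 and 1.95 in MCAO 1, 2 and 3. This was the 1 ratio of 6 whose groups did not overlap, with Sp1 changing by -0.81 relative to Sp2 on the log2(value + 1) scale (two-sided exact permutation p = 0.1, the smallest that 3 against 3 libraries allow, and 0.6 adjusted over 6 pairs). Sp1 over Sp3 was 0.953, 0.733 and 0.753 in the controls and 0.505, 1.07 and 0.629 after MCAO. In MCAO 1 and 3 that ratio lay below all controls and in MCAO 2 above all of them, and the difference of -0.21 had an exact permutation p of 0.5. Sp1 over Sp4 went the same way, at 2.71, 3.67 and 2.68 in controls and 1.24, 4.0 and 1.73 after MCAO (-0.55, exact permutation p = 0.4). MCAO 2 rests on 16, 15 and 4 reads of Sp1, Sp3 and Sp4. For the other pairs the exact permutation p was 0.3 to 0.8. With 3 against 3 libraries this test cannot reach 0.05, so these values settle neither that the members differed in response nor that they did not.

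**Figure D2:**
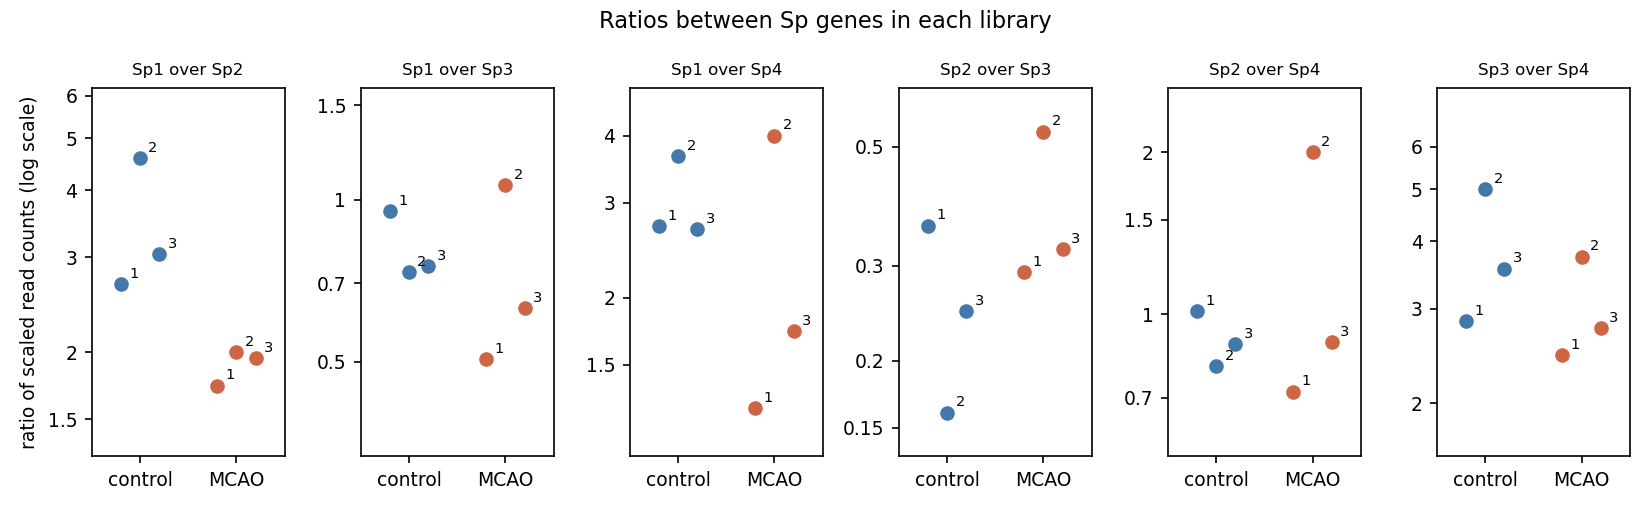
Ratio of scaled read counts between Sp genes (y axis, log scale) in each control and MCAO library, 1 panel per pair, points labelled by replicate. Only for Sp1 over Sp2 do the MCAO points, at 1.73 to 2.00, lie apart from the controls, at 2.67 to 4.58; MCAO 2 stands away from MCAO 1 and 3 in the ratios of Sp1 over Sp3 and Sp1 over Sp4.

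Sp1 held a narrow range of log2 changes over the alternatives in processing, also where its call was lost, while the estimates of Sp3 and Sp4 moved most with MCAO 2. Part of that is by construction, since the filter and moderation settings do not alter a log2 change. With control 2 and MCAO 2 both left out, chosen after seeing the data, Sp1 was at -0.92 (adjusted p = 0.0256) and Sp3 at -0.34 (adjusted p = 0.416).

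**Figure D3:**
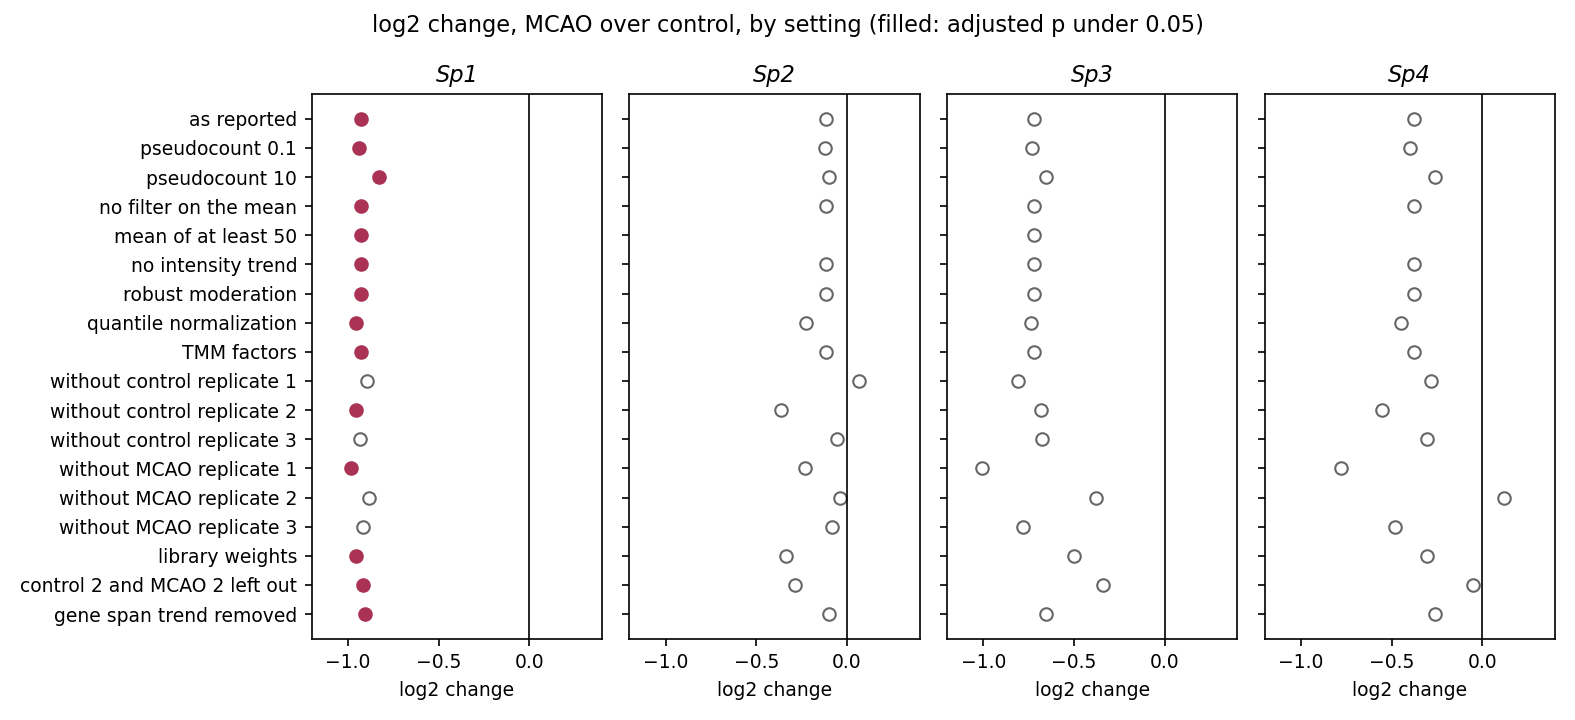
Log2 change on the log2 scale (x axis), MCAO over control, of each Sp gene in the reported fit and under each alternative (rows), filled where the adjusted p is under 0.05; Sp2 and Sp4 have no point at a mean of at least 50. Sp1 stays between -0.98 and -0.83 and is called in 13 of 17 alternatives, while Sp3 is called in 0 of 17 and Sp2 and Sp4 in 0 of 16 each.

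The genes whose profile over the 6 libraries was most like that of Sp1, out of 8119 candidates whose mean reached 50, were Clasp2 (Pearson r = 0.998), which encodes a microtubule-binding protein, Thrap3 (0.997), a splicing-associated gene, and Egfr (0.992), the epidermal growth factor receptor gene. Egfr was at 138, 121 and 124 scaled reads in controls 1, 2 and 3 and at 85.3, 71.5 and 76.6 in MCAO 1, 2 and 3, and its log2 change of -0.71 did not pass the test (adjusted p = 0.0545). For Sp3 they were Tm9sf2 (0.995), Pcmtd2 (0.995) and Slc4a10 (0.995), for Sp4 Sgpp1 (0.999), Arsg (0.989) and Zfp62 (0.984), and for Sp2 Pfn2 (0.985), Kremen1 (0.982) and Nktr (0.981). The genes nearest to Sp3 and Sp4 shared the low value of MCAO 2. Slc4a10, a bicarbonate transporter gene, was at 140 scaled reads there and at 278 and 226 in MCAO 1 and 3. These correlations describe 6 libraries of 2 groups and of unequal depth, and the highest of so many candidates are high by selection.

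Among the other zinc finger factors of the family, log2 changes were negative in all 10 measured genes of a list of 22, with a median of -0.27, against -0.01 over all genes tested. That list was chosen with earlier results of these data known. Klf9 fell and 0 rose, against 0.789% and 2.30% of all genes tested. Klf9, which thyroid and glucocorticoid hormones induce, was at 359, 284 and 362 scaled reads in controls 1, 2 and 3 and at 164, 156 and 180 in MCAO 1, 2 and 3, with no overlap. Means were 335 ± 44.2 and 166 ± 12.3 (SD, n = 3 each). The log2 change of -0.997 (SE 0.16, adjusted p = 0.00281) was not called without the intensity trend in the fit (0.0505). Klf13, with the highest scaled reads of the list (not adjusted for length), had group means of 452 and 387, and its MCAO values lay below all controls without passing the test (log2 change -0.22, adjusted p = 0.452). Sp9, a factor of inhibitory forebrain neurons and the only further Sp gene tested and named after its values were seen, was at 19.3, 24.8 and 27.2 scaled reads in controls 1, 2 and 3. In MCAO 1, 2 and 3 it was at 13.5, 6.22 and 14.7, all below the controls, from 23, 2 and 22 reads (log2 change -1.06, SE 0.45, adjusted p = 0.215). Groups did not overlap, with MCAO lower, in 6 of the 10 relatives and in 12.5% of genes tested. The other listed relatives, among them Klf2 and Klf4, are absent from the 12968 genes with values and so were not tested.

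**Figure D4:**
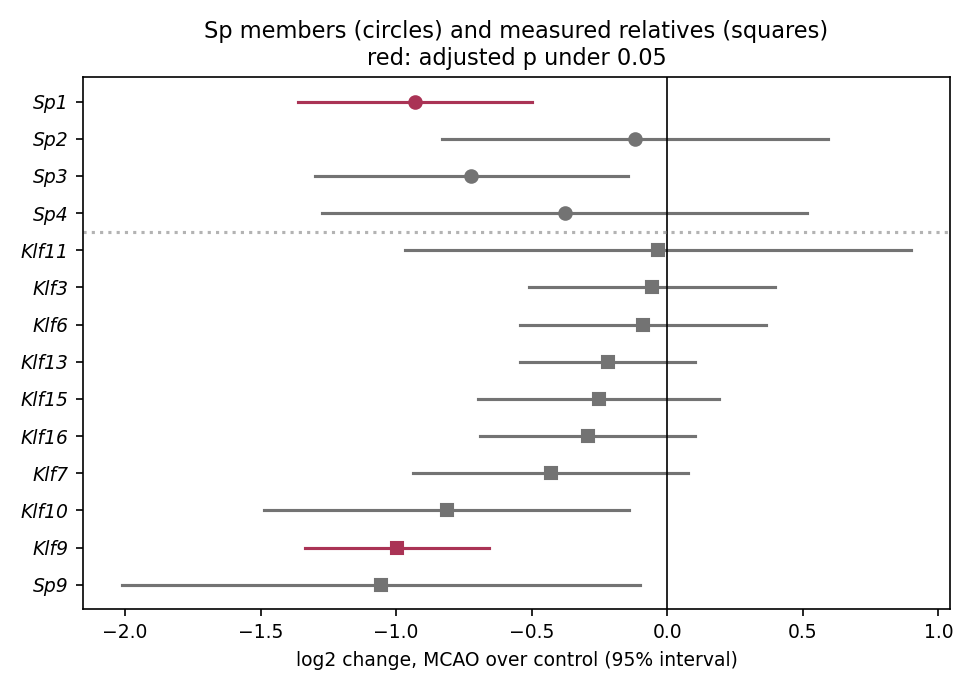
Log2 change on the log2(value + 1) scale, MCAO over control (x axis), with limma's 95% interval for the 4 Sp genes (circles) and the 10 measured relatives (squares); red marks an adjusted p under 0.05. All 14 points lie below 0, and Sp1 and Klf9, at -0.93 and -0.997, are the ones called.

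Partners and modifiers of Sp proteins showed no called gene. Of 35 listed genes, among them the NF-Y subunits, Mediator subunits, histone acetyltransferases, deacetylases and the enzymes of O-GlcNAc, 34 were measured and limma called 0, with 3 at an unadjusted p under 0.05. Over all genes tested 3.08% were called and 19.3% were at an unadjusted p under 0.05. Their median log2 change was -0.14, and 23 of the 34 were negative. Oga, listed in the table under its older symbol Mgea5, removes O-GlcNAc and had the highest scaled reads of the list, not adjusted for length, with means of 684 and 645. Csnk2a1, a catalytic subunit of casein kinase 2, was at 389 ± 34.0 and 380 ± 24.6 (SD, n = 3 each; adjusted p = 0.931). Ep300, an acetyltransferase gene, and Rela, the gene of the NF-κB subunit p65, are named after their values were seen. Ep300 was at 143, 119 and 116 scaled reads in controls 1, 2 and 3 and at 74.7, 77.8 and 87.9 in MCAO 1, 2 and 3. The groups did not overlap, with MCAO lower as in 12.5% of genes tested, and its log2 change of -0.64 (SE 0.19) was not called (limma adjusted p = 0.0822). Rela was at 80.0, 55.0 and 84.5 scaled reads in the controls and at 88.8, 137 and 117 in MCAO 1, 2 and 3. Its MCAO values lay above all controls, as in 12.4% of genes tested. The log2 change of Rela, 0.64 (SE 0.23), also missed the threshold (limma adjusted p = 0.154). The third was Atf7ip, at -0.45 (adjusted p = 0.182).

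Genes described as Sp targets moved in both directions. Of 29 listed genes 26 were measured. Timp1 and Tgfb1 reached the filter's mean of 10 in MCAO libraries alone, not in controls. Of the other 24 genes Ccnd1 and Vim rose and Grin2b fell, where 2.30% of all genes tested were called higher and 0.789% lower. Over the 26 the median log2 change was -0.03, with 13 positive and 13 negative. By limma 12 of the 26 were at an unadjusted p under 0.05, against 19.3% of all genes tested. MCAO values lay above all controls in 10 and below all controls in 4, against 12.4% and 12.5% of genes tested. The counts of 12 and 10 include Timp1 and Tgfb1. Ccnd1, the cyclin D1 gene, rose from 102, 69.2 and 109 scaled reads in controls 1, 2 and 3 to 325, 317 and 480 in MCAO 1, 2 and 3 (log2 change 1.99, SE 0.21, adjusted p = 0.000102). Vim, the vimentin gene, was at 55.8 to 67.4 in controls and at 726 to 1594 after MCAO. Timp1, the gene of a metalloproteinase inhibitor, was listed at the floor of 1 in controls 1 and 2 and at 1.51 in control 3, and at 40.0, 21.8 and 57.9 in MCAO 1, 2 and 3. Its fitted change depends on that floor and is not given, and its call was lost without MCAO 3 (adjusted p = 0.0560). Grin2b, an NMDA receptor subunit gene, fell from 555, 702 and 596 scaled reads to 464, 305 and 377. The groups did not overlap, with MCAO lower as in 12.5% of genes tested. Its log2 change was -0.71 (SE 0.17, limma adjusted p = 0.0394). That call was lost when any 1 library but MCAO 1 was left out (adjusted p 0.0724 to 0.129), and with the trend on gene span removed (0.180). Microglia markers, 7 of 10 of them higher among those whose control mean reached the filter, rose in the same libraries as Ccnd1 and Vim, and their part was not tested.

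Nuclear genes for cytochrome c oxidase, the last complex of the respiratory chain, have been described in neurons as regulated by Sp factors. All 10 listed subunit genes were measured and had positive log2 changes, from 0.32 to 0.92 with a median of 0.62, and in all 10 the MCAO values lay above all controls, as in 12.4% of genes tested. This list, too, was chosen with earlier results of these data known. Cox7c, Cox6a1 and Cox5a rose, against 2.30% of genes tested, and 0 fell. Cox6a1 went from 439, 305 and 427 scaled reads to 620, 753 and 582 (log2 change 0.75, SE 0.17, adjusted p = 0.0303). Cox7c rose by 0.86 (SE 0.22, adjusted p = 0.0488) and Cox5a by 0.56 (SE 0.14, adjusted p = 0.0491). These are compact genes, 8 of 10 with a genomic span of at most 10370 bases; the 2985 tested genes up to that span had a median log2 change of 0.21, against -0.19 in the 2985 genes of 63167 bases or more. With that trend of each library removed, an alternative chosen after seeing the data, Cox6a1 was at 0.49 (adjusted p = 0.107), Cox7c at 0.54 (0.163) and Cox5a at 0.50 (0.0802), and 0 of the 10 were called. In that fit Sp1 was at -0.91 (adjusted p = 0.0270). What part gene span has in these changes was not tested. All 3 calls were lost without control 2, MCAO 1, MCAO 2 or MCAO 3.

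**Figure D5:**
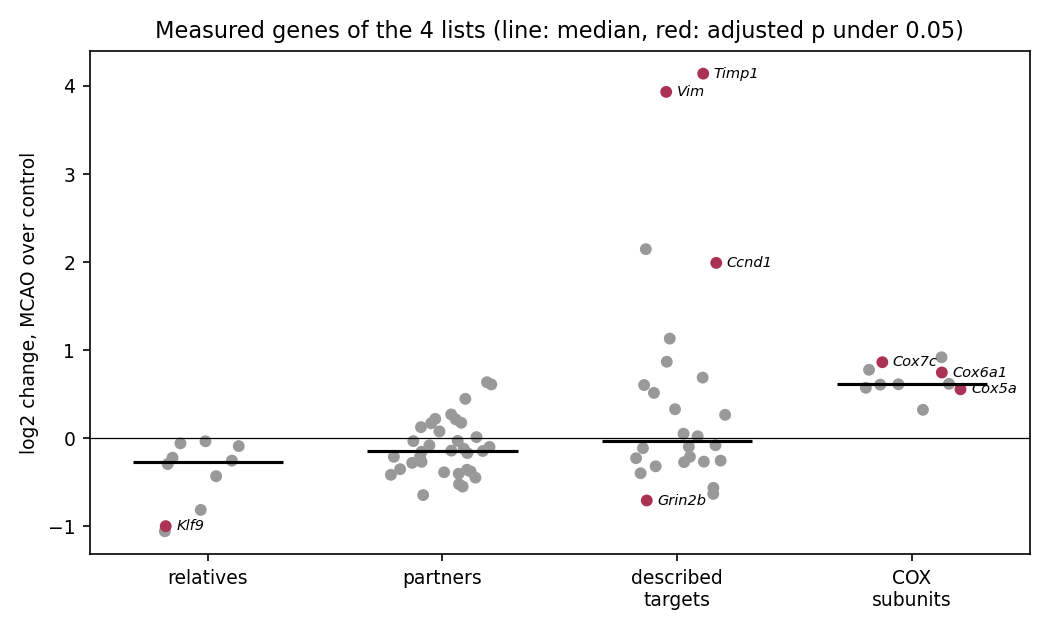
Log2 change on the log2(value + 1) scale, MCAO over control (y axis), of the measured genes of each list; lines are medians and red marks an adjusted p under 0.05. Relatives lie below 0, described targets spread to both sides and all 10 cytochrome c oxidase (COX) subunits lie above 0; the height of Timp1 depends on the floor of the table.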

How the data were processed

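RNA of 6 RiboTag immunoprecipitates was sequenced by the submitters as polyA RNA with the Illumina TruSeq RNA kit, per the labels' protocols. The deposited table holds a normalised signal per gene, made by the authors, which the values show to be reads divided by 1 factor per library. Division by that step gave whole reads, within 0.1 read, for 99.9458% of values above the floor in control 1 and 100% in the other 5 libraries, and values under 1 stand at 1. The submitters' processing notes name mm10, CASAVA 1.8, HISAT2 2.0.11, Partek 6.6, R 3.3.1 and DESeq2 without roles; no source used here gives the counting or strand settings.

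The fit used limma 3.58.1 in R 4.3.3 (empirical Bayes with intensity trend, two-sided) on log2(value + 1), over genes with a mean of at least 10, with Benjamini-Hochberg adjustment over all genes tested and calls at an adjusted p under 0.05. Fold changes on this scale understate those of low genes, and intervals from reads cover counting error only. The fit was tested on simulated data. Technical replicates, 2 per animal by the design text, share 1 column. Replicate numbers only name a library. Members and lists were chosen with earlier results of these data known. Named genes were the 4 members, up to 4 called members of each list (or, with fewer than 2 called, also its 2 most abundant), and the 3 genes most correlated with each member; others are said to be named after their values were seen. Alternatives covered pseudocount, filter, moderation, normalization and each library left out. Count tests were not run.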

Additional observations from a re-analysis of the deposited data

How the results depend on the processing

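The log2 change of Sp1 was negative under all 17 alternatives (-0.98 to -0.83), with adjusted p from 0.00244 to 0.106, and was called under 13. As its groups did not overlap, its sign could not turn with 1 library left out. The filter and moderation settings leave its change at -0.93 and bear on its adjusted p only. Leaving out 1 library gave log2 changes of -0.98 to -0.89 for Sp1, -0.37 to 0.069 for Sp2, -1.01 to -0.38 for Sp3 and -0.78 to 0.12 for Sp4. Sp1, and with it the count of called members, was lost in 4 of these 6 fits, so that the count was 0 or 1; the sign of Sp2 turned without control 1 (0.069) and that of Sp4 without MCAO 2 (0.12). The difference in log2 change between Sp1 and Sp3 ranged from -0.51 to 0.022 (without MCAO 1), and that between Sp2 and Sp4 from -0.16 (without MCAO 2) to 0.55. Called genes in all numbered 144 to 304 with 1 library left out (22 to 97 of them lower), 157 without the intensity trend (18 lower) and 1002 with library weights (436 lower), against 387 (99 lower) as reported; with control 2 and MCAO 2 both left out 231 were lower. The cause was not tested.

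Counts of the lists moved as follows. Called cytochrome c oxidase genes, 3 as reported, numbered 1 with a pseudocount of 0.1, 0 without the intensity trend, 1 with control 2 and MCAO 2 left out, 0 with the gene span trend removed, and 0 to 2 with 1 library left out. Among relatives the count of 1 went to 0 without the intensity trend. Of the described targets, with Timp1 and Tgfb1 kept in the count, 2 to 4 were called with 1 library left out and 8 with library weights, which also called 1 partner. Library weights, the pair left out and the removal of the span trend were chosen after seeing the data. The planned count tests were not run because the columns did not all pass the test for whole reads at low values. A level per transcript length was not computed, since the reference table used here gives genomic spans. No paired analysis was possible because the labels give the animals no shared replicate numbers. Depth limits Sp2 and Sp4 most, with 4 to 15 reads per gene in control 2 and MCAO 2.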

Other observations

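The GC box was set beside the response of all tested genes as a description. Of 9367 tested genes with a RefSeq promoter window matched by symbol, 6625 had GGGCGG or its reverse complement in at least 1 window of 300 bases. Genes with a box had a median log2 change of -0.02, with 1.95% called higher and 0.86% called lower after MCAO. Genes with 0 boxes, 2742 in number, had a median of 0.01 (0.005 before rounding), with 2.84% called higher and 0.729% called lower. Among 2430 genes with 3 or more boxes the median was -0.04, with 1.77% higher and 0.947% lower. Read the other way, 62.3% of 207 called higher genes, 74% of 77 called lower genes and 70.9% of 9083 genes that were not called had a box. No test was made of these shares, and a gene with several windows had more sequence searched.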
